A study of Mus musculus with 3 samples.

Results

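The chemokines that attract neutrophils through the receptor Cxcr2 were examined over single cells of a mouse esophageal culture. The members were Cxcl1, Cxcl2, Cxcl3, Cxcl5 and Ppbp, taken by gene symbol, and they make up 5 of the 32287 features counted in the matrix. The cells, called PC, come from esophageal organoids of mice with Trp53 floxed alleles, in which Trp53 was removed by an adenovirus carrying Cre and EGFP (Ad-Cre-EGFP) and Cdkn2a was then disrupted by CRISPR/Cas9. They express Cas9 constitutively, received a library of barcodes with Lipofectamine 3000, went through 3 passages, and were sorted as RFP-positive (red fluorescent) live cells. All cells share these changes, and no unedited cells and no PCN cells, which carry a Notch1 knockout, were analysed here. There was 1 culture and no replicate, so no difference between cells was set against a spread between cultures and no test was made. The labels name 3 libraries (gene expression, barcodes and scar regions) and the matrix does not say which supplied its reads.

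These proteins are small secreted chemokines of the CXC family with the sequence Glu-Leu-Arg before the CXC motif. They bind Cxcr2 on neutrophils and draw them into inflamed tissue. Their genes lie side by side and are classic targets of NF-kB, switched on in epithelial cells by interleukin-1, TNF and interleukin-17. Their messenger RNAs are often short-lived, because AU-rich elements in the 3' untranslated region recruit decay factors. Ppbp, which encodes the precursor of CXCL7, is best known from platelets.

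The filters kept 14925 of 18116 barcodes, with 45443280 UMIs (unique molecular identifiers, each counting 1 captured RNA molecule) and a median of 2955 UMIs per cell. Of 8 neutrophil markers, 4 had 0 UMIs (Csf3r, Retnlg, Mmp8 and Elane), and of 7 platelet markers, 3 had 0 UMIs (Gp1bb, Treml1 and Clec1b). The immune list held 8.80 CPM in sum (CPM is counts of a gene per 1000000 UMIs), with Ptprc, which marks all white blood cells, at 1 UMI. The endothelial list held 10.1 CPM. The basal keratinocyte list, with Krt5 and Krt14, held 2912 CPM and had none of its 8 markers at 0. The platelet list held 17.2 CPM, of which 612 of 782 UMIs were Itgb3, an integrin that stromal cells also make, while the platelet glycoprotein Gp9 had 1 UMI. The labels name the tissue as esophageal cancer.

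In GENCODE M21 on GRCm38 (mm10) the 5 genes lie within 146.6 kb of chromosome 5, all on the plus strand. Their order is Cxcl5 (90759360 to 90761624), Ppbp (90768518 to 90770063), Pf4, Cxcl3 (90786103 to 90789600), Cxcl15, Cxcl1 (90891241 to 90893115) and Cxcl2 (90903871 to 90905938). A gap of 88.2 kb between Cxcl15 and Cxcl1 separates the last pair from the others, while Cxcl5 and Ppbp are 6.89 kb apart. The stretch just before the start site is shown for the 4 members with an entry in the RefSeq promoter table (GRCm38.p6), because it is where these neighbours can be compared base by base. Each window covers the 100 bases before the RefSeq start, 5' to 3', and capitals mark GGGAATTTCCC, the longest run of letters that Cxcl1, Cxcl2 and Cxcl3 share before their starts, and TATAAA, the TATA box.

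Ppbp promoter, chr5:90768418-90768517, plus strand: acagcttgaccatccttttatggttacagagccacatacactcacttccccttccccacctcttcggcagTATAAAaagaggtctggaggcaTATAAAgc
Cxcl3 promoter, chr5:90786001-90786100, plus strand: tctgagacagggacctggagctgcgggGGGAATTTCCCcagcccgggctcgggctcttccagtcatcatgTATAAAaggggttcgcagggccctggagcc
Cxcl1 promoter, chr5:90891145-90891244, plus strand: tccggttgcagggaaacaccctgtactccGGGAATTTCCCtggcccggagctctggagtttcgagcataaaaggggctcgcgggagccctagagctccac
Cxcl2 promoter, chr5:90903799-90903898, plus strand: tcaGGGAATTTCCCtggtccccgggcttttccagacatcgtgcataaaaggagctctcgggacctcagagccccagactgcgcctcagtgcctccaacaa

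The shared run of 11 letters holds a known form of the NF-kB site. It began at base -71 in Cxcl1, -97 in Cxcl2 and -73 in Cxcl3, counted from the RefSeq start, on the plus strand in each. The GENCODE start of Cxcl2 (90903871) lies inside its printed window, before the RefSeq start, so its distance depends on the annotation. Because the run was found as what these 3 promoters share, its presence in them is no result. Searched on both strands, it was in 14 of 32851 promoter windows of 300 bases, or 0.0426%, and the Ppbp window had no match to it. A longer run, of 13 letters, was shared by the same 3 genes after their starts. Ppbp held TATAAA at -30 and at -8, and Cxcl3 held it at -30. TATAAA was in 13.6% of all windows. Ppbp also had TGANTCA, the form searched for the AP-1 site, at -204, outside the printed stretch, and 7.81% of windows had it. Over the whole windows, Cxcl2 and Cxcl3 were the most alike pair (57.6% identical in a pairwise alignment) and Cxcl1 and Ppbp the least (48.2%). A match is a description of letters and shows no binding.

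The annotated 3' untranslated regions were searched as well. ATTTA, the core of AU-rich elements, occurred 11 times in the 734 bases of Cxcl2 and 7 times in the 592 bases of Cxcl1. It occurred 5 times each in Cxcl3 (645 bases) and Cxcl5 (1111 bases) and 1 time in Ppbp (656 bases). The longer ATTTATTTA, which 5.17% of 21039 genes with such a region had, was found 4 times in Cxcl2 and 2 times in Cxcl1 and in none of the other members. Per kb this gave 14.99 ATTTA in Cxcl2, 11.8 in Cxcl1, 7.75 in Cxcl3, 4.50 in Cxcl5 and 1.52 in Ppbp, against 1.94 over all such regions.

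The members together made up 264930 UMIs, which is 0.583% of the total and 5830 CPM. Ppbp was the most abundant at 3514 CPM (95% Poisson interval 3497 to 3532, from 159710 UMIs) and ranked 22 among all features. Cxcl5, a chemokine of epithelial cells, followed at 1656 CPM (1644 to 1668). Cxcl1, the main early neutrophil attractant of mouse epithelium, was at 470.0 CPM (463.7 to 476.3). Cxcl3 reached 134.8 CPM (131.4 to 138.2), and Cxcl2, a strongly inducible neutrophil attractant, was the lowest at 54.6 CPM (52.5 to 56.8). None of these intervals overlapped, and all intervals here cover counting error only. UMIs count molecules from the 3' end and were not divided by length.

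The 2 neighbours that lie among the members were close to 0. Pf4, a platelet chemokine that lies 2.37 kb from Ppbp, had 73 UMIs, or 1.61 CPM (1.26 to 2.02). Cxcl15, a chemokine known from lung, had 43 UMIs, or 0.946 CPM (0.685 to 1.28). The order of levels thus did not follow the order along the chromosome, and the neighbours of the most abundant gene held both the second highest level and a level near 0.

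**Figure D1:**
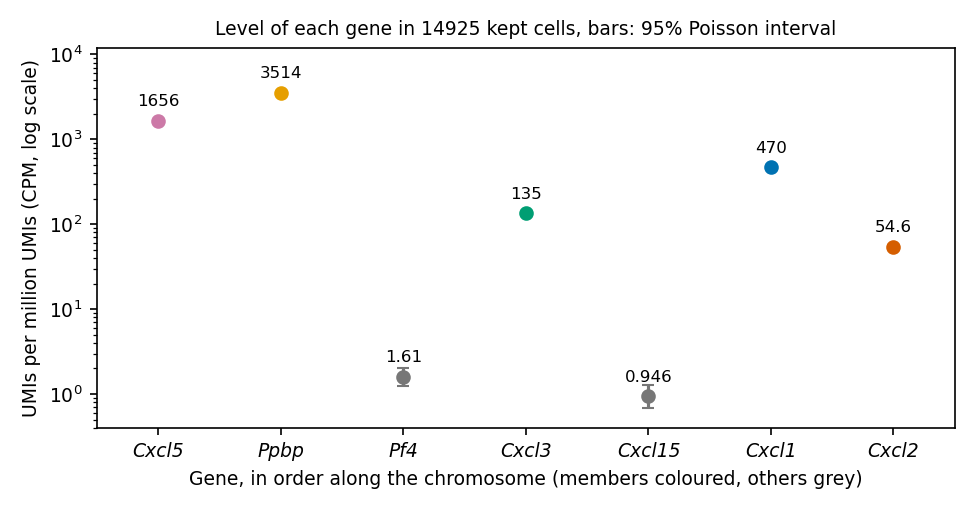
Level of each chemokine gene in CPM on a log axis (y), in order along the chromosome (x), with 95% Poisson intervals that are smaller than the points for the members. Ppbp (3514 CPM) and Cxcl5 (1656 CPM) stand highest, and Pf4 (1.61 CPM), directly after Ppbp, and Cxcl15 (0.946 CPM) lie near 1 CPM.

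A Ppbp UMI was found in 71.7% of kept cells (exact binomial interval 70.9% to 72.4%), a Cxcl5 UMI in 62.6%, a Cxcl1 UMI in 44.2%, a Cxcl3 UMI in 15.6% and a Cxcl2 UMI in 6.71%. To compare cells at 1 depth, each was thinned at random to 1500 UMIs, which left 13281 cells and left out 1644 shallower ones. The shares then were 68.1% for Ppbp, 55.04% for Cxcl5, 32.2% for Cxcl1, 10.4% for Cxcl3 and 4.13% for Cxcl2. At least 1 member was found in 82.9% of thinned cells (82.2% to 83.5%). All values per cell below are at this depth unless said otherwise.

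The members were spread over cells far more unevenly than counting alone gives. The variance-to-mean ratio, which is 1 for Poisson counts, was 12.03 for Ppbp, 7.49 for Cxcl5, 3.42 for Cxcl2, 3.32 for Cxcl3 and 3.21 for Cxcl1. Of all genes, 2624 had a thinned mean of 0.1 or more; their median ratio was 1.05 and 5.91% reached 1.5. Ppbp ranked 7, Cxcl5 12, Cxcl3 30 and Cxcl1 33 among them, so 4 of the 4 members with enough UMIs were above 1.5. At the same relative spread this ratio grows with a gene's mean, and the genes ranked were not matched on it. Cxcl2, with a mean of 0.0709, was under the minimum and was not ranked.

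The same gene was at 0 in many cells and high in a few. Ppbp had 0 UMIs in 31.9% of cells, where a Poisson count of the same mean (4.72) gives 0.892%, and 10 or more UMIs in 15.6%. Its highest thinned cell had 93 UMIs, and its highest unthinned cell 445. Cxcl5 had 0 UMIs in 44.96% of cells (9.65% from Poisson), 10 or more in 5.58%, and a highest cell of 57. For Cxcl1, 67.8% of cells were at 0 (51.8% from Poisson) and 59 cells had 10 or more, up to 22. A negative binomial with the measured mean and variance gave 34.5% of cells at 0 for Ppbp, 48.4% for Cxcl5 and 70.7% for Cxcl1, each above the measured share.

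The low members had the largest part of their UMIs in few cells, which counting alone also gives for low counts. The 1% of cells (133) with the most Cxcl2 held 51.4% of its UMIs, where a Poisson count of that mean gives 17.6%. For Cxcl3 that share was 30.4% (11.7% from Poisson), for Cxcl1 15.2% (5.37%), for Cxcl5 11.6% (3.16%) and for Ppbp 10.1% (2.43%). Measured against Poisson, the share was therefore raised for every member, and in absolute terms it was smaller the higher the level of the gene. As a multiple of the Poisson share, it was larger for Ppbp and Cxcl5 than for Cxcl1, Cxcl2 and Cxcl3. Only 29 cells had 5 or more Cxcl2 UMIs, with 19 in the highest, and 62 had 5 or more Cxcl3 UMIs, with 30 in the highest.

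**Figure D2:**
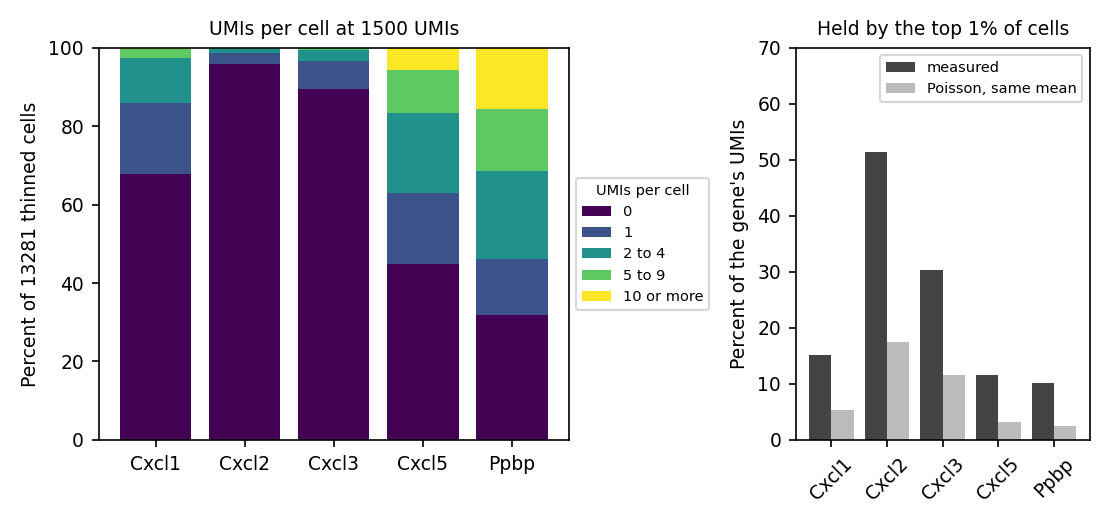
Left, percent of 13281 cells thinned to 1500 UMIs (y) by UMIs per cell (colours) for each member (x). Right, percent of each gene's UMIs held by the 1% of cells with the most of it (dark) and the percent a Poisson count of the same mean gives (light): 51.4% against 17.6% for Cxcl2 and 10.1% against 2.43% for Ppbp.

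Depth and RNA quality were compared with these values. Over thinned cells the Spearman correlation with a cell's total UMIs before thinning was 0.291 for Ppbp, 0.192 for Cxcl5, 0.133 for Cxcl3, 0.117 for Cxcl1 and 0.0761 for Cxcl2. With the mitochondrial share it was -0.164 for Ppbp and between 5.83e-05 and 0.0530 for the other 4. The part of either in the spread was not tested.

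Cells often held several members at once. Of the thinned cells, 17.1% held none, 28.4% held 1, 30.3% held 2, 17.2% held 3, 5.81% held 4 and 1.23% (163 cells) held all 5. Had the 5 shares combined independently, 8.35% would hold none and 0.0519% all 5. Both ends of the distribution were thus fuller than the product of the shares gives, and the classes with 1 and with 2 members were smaller.

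Among cells picked by their summed member UMIs, Ppbp was mostly the largest. Ppbp held 60.3% of the members' UMIs, so picking by the sum favours cells rich in it. In 2072 cells Ppbp alone reached 10 UMIs, against 741 for Cxcl5 and 59 for Cxcl1. Among the 3594 cells (27.1%) with 10 or more summed member UMIs, Ppbp was the largest in 2603 (72.4%), Cxcl5 in 874 (24.3%), Cxcl1 in 106, Cxcl3 in 7 and Cxcl2 in 4. Ppbp was at 0 in 109 of these cells, Cxcl5 in 305 and Cxcl1 in 1604.

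All 10 pairs of members were found together in more cells than the product of their shares, with a median ratio of 1.44. The highest ratio was that of Cxcl2 and Cxcl3, at 3.78 (3.296 to 4.314; 216 cells against 57.2), although 114 kb lie between them. Cxcl1 and Cxcl2, neighbours at 10.8 kb, had 2.301 (2.085 to 2.53; 406 cells against 176.5). Cxcl1 and Cxcl3, 102 kb apart, had 1.88 (1.76 to 2.01). The 3 pairs among Cxcl1, Cxcl2 and Cxcl3 thus had the 3 highest ratios of the 10. The 10 pairs share genes and cells, so this is a description. These members were found in the fewest cells, and the upper limit of a ratio is set by the larger share of the pair. Their place at the top therefore cannot be tied to their promoters. By Spearman correlation these pairs were at 0.236, 0.225 and 0.205, not the highest of the 10.

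Cxcl5 stood between these genes and Ppbp. It had a ratio of 1.63 with Cxcl3, 1.56 with Cxcl2 and 1.33 with Cxcl1. The pairs with Ppbp were the closest to 1, at 1.30 with Cxcl3, 1.27 with Cxcl2, 1.19 with Cxcl5 and 1.10 with Cxcl1. A ratio for genes found in most cells cannot be large, and by rank the order differed: Cxcl5 and Ppbp, 6.89 kb apart, had the highest Spearman correlation, 0.461, followed by Cxcl1 and Cxcl5 at 0.343 and Cxcl3 and Cxcl5 at 0.331 (n = 13281 cells of 1 culture that share depth). The closest pair, Cxcl5 and Ppbp, thus had the second lowest ratio, which their large shares limit, and the highest rank correlation. The ratios therefore cannot show whether distance between the genes orders the pairs.

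Within clusters the ratios were lower. With the expected number taken within every cluster, small ones included, the median ratio was 1.30, with 2.69 for Cxcl2 and Cxcl3 and 1.98 for Cxcl1 and Cxcl2. In 9 of the 10 pairs the ratio was above 1 in every one of the 8 clusters of at least 200 cells. Cxcl3 and Ppbp were above 1 in 7 of 8, with 0.616 in the lowest, cluster 6. That cluster had 201 thinned cells, of which 7.46% held a Cxcl3 UMI, so this ratio rests on few cells. Cxcl2 and Cxcl3 transcripts share 80 stretches of 31 bases, and none in their last 500 bases, the end that 3' libraries read, and no other pair of members shares any.

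**Figure D3:**
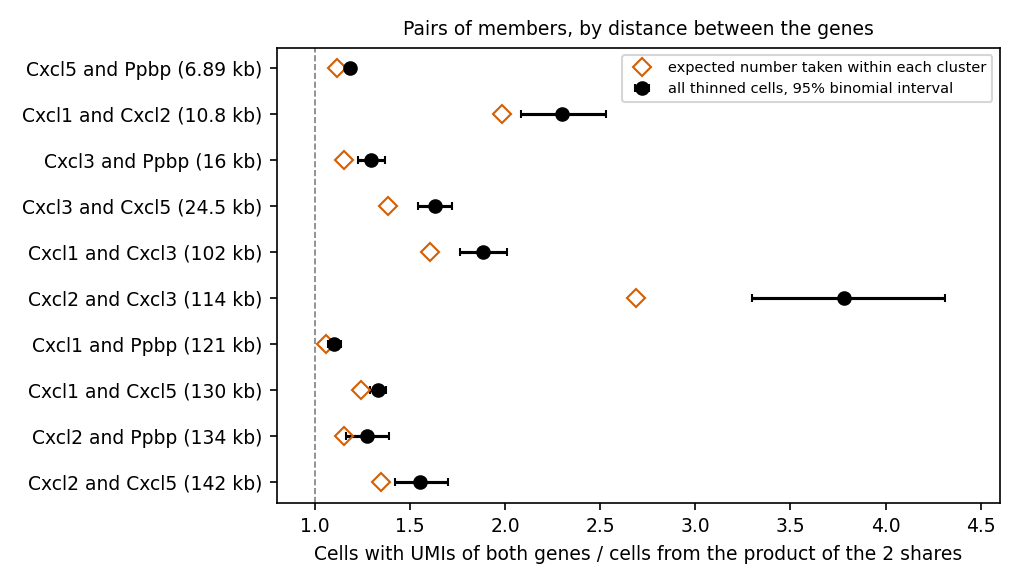
Cells with UMIs of both genes divided by the number from the product of the 2 shares (x), for the 10 pairs ordered by distance between the genes (y). Black points are all 13281 thinned cells with 95% binomial intervals, and open diamonds take the expected number within clusters. Cxcl2 and Cxcl3 lie farthest right (3.78), and all pairs lie above 1 (dashed line).

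Amounts went together as well. In the 9004 cells without Cxcl1 the mean was 0.0206 UMIs of Cxcl2, 0.0856 of Cxcl3, 1.47 of Cxcl5 and 3.84 of Ppbp. In the 59 cells with 10 or more Cxcl1 UMIs, the means were 3.09 (2.65 to 3.57), 2.53 (2.14 to 2.97), 13.0 (12.1 to 14.0) and 10.7 (9.88 to 11.6). As a ratio of the means, Cxcl2 differed most and Ppbp least, and as a difference in UMIs, Cxcl5 differed most and Cxcl3 least. Of the cells with 10 or more Cxcl1 UMIs, 72.9% had a Cxcl2 UMI, against 1.58% of cells without Cxcl1.

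Starting from the rarest and from the most abundant member gave these values. The 29 cells with 5 or more Cxcl2 UMIs had on average 9.0 UMIs of Cxcl1, 4.52 of Cxcl3, 15.5 of Cxcl5 and 16.8 of Ppbp, and 20 of them had 5 or more Cxcl1 UMIs. Of the 4182 cells with 5 or more Ppbp UMIs, 7.84% had any Cxcl2, against 4.13% of all thinned cells, and 42.8% had any Cxcl1, against 32.2% of all.

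Clustering without the members and the related genes gave 11 clusters, 8 of them with at least 200 cells. Among these 8, cluster 5 (1121 cells), led by Ltf, Gabrp and Lcn2, which encode lactoferrin, a GABA receptor subunit and lipocalin-2, had the highest level of each member (at resolution 0.4 the highest Cxcl1 level, 909.6 CPM, was in another cluster, of 210 cells). Their sum there was 14795.8 CPM, 8.59 times the 1722 CPM of cluster 4 (1965 cells), led by Grem1, Ccn5 and Cacna1c, with Vim among its 10 leading genes. The sum in cluster 6, at 1741 CPM (1664 to 1821), overlapped that in cluster 4 (1691 to 1753). Of 12 mesenchymal markers, 7 were raised in cluster 4. Cells of a cluster are not replicates.

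By member, the order of the 8 clusters was as follows. Ppbp was at 8279 CPM in cluster 5, 4619 in cluster 3, whose cells carry cycling markers, 4161 in cluster 1 (led by Prl2c3), 4016 in cluster 7 (led by Krt16), 3630 in cluster 8 (led by Prl2c5) and 1712 in cluster 2 (led by Krt7), and lowest at 732.1 in cluster 4 and 690.0 in cluster 6, whose intervals overlapped. Cxcl5 was at 4874 CPM in cluster 5, 2033 in cluster 1, 1518 in cluster 3, 1319 in cluster 7, 920.3 in cluster 8, 748.1 in cluster 2, 635.8 in cluster 6 and 592.9 in cluster 4, the last pair overlapping. For both genes clusters 2, 4 and 6 formed the low end. The level of Ppbp in cluster 3 was 0.558 times, and in cluster 1 0.502 times, that in cluster 5, so neither difference reached 2-fold.

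Cxcl1 varied least, from 1015 CPM (982.6 to 1048) in cluster 5 and 609.6 in cluster 7 down to 336.5 in cluster 4, 326.0 in cluster 6 and 273.0 in cluster 2, a 3.72-fold range. Cxcl2 ran from 179.2 CPM in cluster 5 and 107.0 in cluster 7 to 16.8 (13.8 to 20.2) in cluster 4, a 10.7-fold range, and its intervals in clusters 8, 2 and 4 overlapped between neighbours. Cxcl3 had a 14.7-fold range, from 448.0 CPM in cluster 5 and 294.1 in cluster 7 to 30.5 (26.7 to 34.7) in cluster 2. Under 3 of 5 alternatives Ppbp had a wider range than Cxcl3 (19.87 against 13.21 at resolution 0.4, 23.06 against 19.52 at resolution 1.0, and 24.35 against 16.77 without the highest Scrublet scores). In these 3 the lowest Ppbp cluster, at 356.2, 357.0 and 344.6 CPM, came mostly from cluster 6. The cells of cluster 6 were shallow (median 1216 UMIs), with a median mitochondrial share of 9.75%. Cluster 7 thus came second for Cxcl1, Cxcl2 and Cxcl3 and was lower in the order for Cxcl5 and Ppbp.

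**Figure D4:**
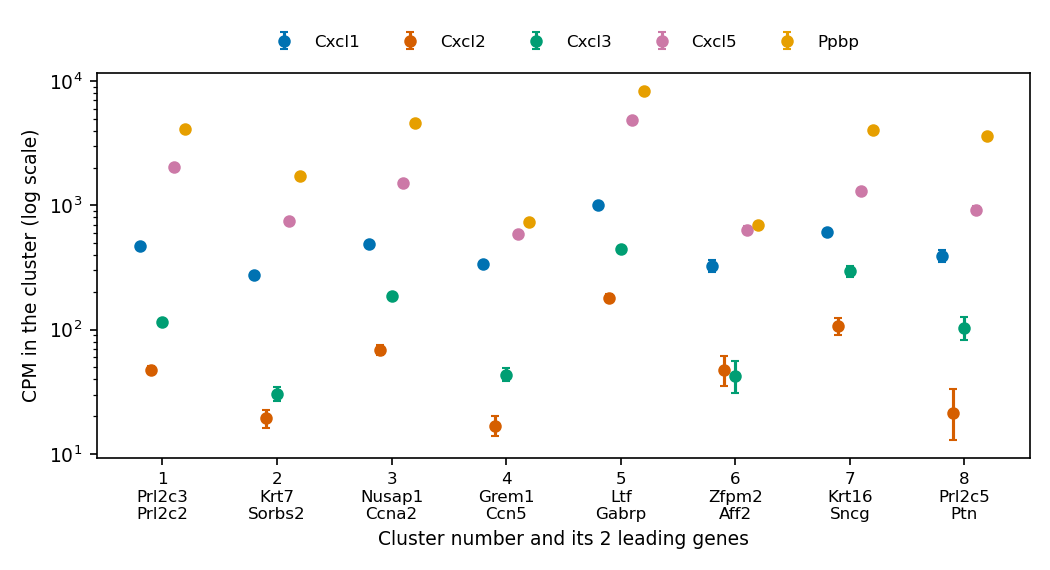
CPM of each member (colours) on a log axis (y) in the 8 clusters of at least 200 cells (x, with 2 leading genes each), with 95% Poisson intervals where larger than the point. Cluster 5 is highest for all 5 members, from 179.2 CPM for Cxcl2 to 8279 CPM for Ppbp.

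A gene was called different from all other cells at a ratio of at least 2, at least 10 CPM on the higher side and intervals that did not overlap. In cluster 5, 5 of 5 members were called higher, where 3.51% of all genes were, with ratios of 4.18 for Cxcl3, 4.11 for Cxcl2, 3.55 for Cxcl5, 2.68 for Ppbp and 2.41 for Cxcl1. In cluster 7, Cxcl3 (2.27) and Cxcl2 (2.02) were called higher, against 2.52% of genes. In cluster 4, 4 of 5 were called lower, against 10.2% of genes, with Ppbp 5.47-fold lower, and in cluster 2 the same 4 were called lower, against 4.17%, with Cxcl3 5.10-fold lower. Cxcl1 was called in neither, at 1.47-fold and 1.87-fold lower.

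Markers of other cell types were checked in the same clusters. The neutrophil list summed to 22.9 CPM in cluster 5 and 33.8 CPM in cluster 7, and to 0 to 2.26 CPM in the other 6. In cluster 7 this was S100a9 alone, which keratinocytes also make, with 7 of the 8 markers at 0, and in cluster 5 it was 72 UMIs of S100a9, 11 of S100a8 and 1 of Ly6g, with 5 markers at 0. The platelet list summed to 4.14 to 7.91 CPM in 7 clusters and to 80.3 CPM in cluster 4, where 77.5 CPM was Itgb3 and where Ppbp was low.

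In cluster 6 (730 cells), 3 of 5 were called lower, against 24.9% of all genes. Its cells were shallow (median 1216 UMIs), and their median mitochondrial share was 9.75%, where the other 7 clusters had 2.24% to 3.51%, and the part of these in the result was not tested. Cxcl2 was called lower in cluster 8, against 5.31% of genes. In clusters 1 and 3 no member was called, where 0.515% and 5.6% of genes were called higher and 5.97% and 3.38% lower. No member was called higher in cluster 2, 4, 6 or 8, where 0.969%, 10.3%, 31.2% and 2.4% of genes were, or lower in cluster 5 or 7, where 6.63% and 7.14% were.

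The makeup of the members' UMIs shifted with the cluster. Ppbp made up 71.6% of them in cluster 8, 67.1% in cluster 3 and 55.96% in cluster 5, but 42.5% in cluster 4 and 39.6% in cluster 6. Cxcl1 made up 19.5% in cluster 4 and 18.7% in cluster 6, against 6.86% in cluster 5. The small cluster 9 (123 cells, led by Ly6c1, Pate14 and Krt7) had 1092 CPM of Cxcl1 (997.5 to 1192), overlapping the level in cluster 5, with Ppbp at only 1226 CPM. There Cxcl1 made up 28.2% of the members' UMIs.

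Free RNA in the droplets was gauged with epithelial genes in cluster 4. Krt5 there was at 8.01% and Epcam at 7.48% of their level over all cells, and Ppbp was at 20.8%, Cxcl2 at 30.7%, Cxcl3 at 32.3%, Cxcl5 at 35.8% and Cxcl1 at 71.6%. The other way round, a Vim UMI was found in 0.0940% to 0.896% of thinned cells of clusters 1, 2, 3 and 5 (median depths 1985 to 3688 UMIs, against 3346 in cluster 4) and in 7.59% of cluster 8 (45.2 CPM). Vim was at 2.71 CPM in cluster 6 and 1.38 CPM in cluster 7.

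Differences between clusters were a minor part of the spread. They made up 14.8% of the variance over thinned cells for Cxcl5, 11.6% for Ppbp, 4.22% for Cxcl1, 3.95% for Cxcl3 and 1.47% for Cxcl2. Within cluster 1 alone, the variance-to-mean ratio of Ppbp was 9.47 and that of Cxcl5 5.76. Within cluster 5 they were 16.2 and 8.88. Of the cells of cluster 5, 38.1% had 10 or more Ppbp UMIs, against 1.81% in cluster 4, and 26.6% against 0.570% had 10 or more Cxcl5 UMIs.

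The pathway around these chemokines was described with 64 related genes, 63 of them in the matrix. Of the receptors, Cxcr2, through which the members act on neutrophils, had 2 UMIs, and Cxcr1 and the scavenger receptor Ackr1 had 0. The most abundant was Ackr3, a scavenger of Cxcl12, with 575 UMIs (12.7 CPM). Among cytokines that induce the members, Il1a was present at 77.8 CPM and Tnf at 29.8 CPM, while Il1b had 2 UMIs and Il17a 0.

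Cells with 5 or more summed member UMIs (6246 cells) were compared with cells that had none (2272). Ppbp held 60.3% and Cxcl5 28.4% of the members' UMIs, so this split mainly follows these genes and says less about Cxcl1, Cxcl2 and Cxcl3. Of the 37 related genes with at least 10 CPM on 1 side, 9 were called higher in the former, where 1.65% of all genes were, and 2 lower, against 4.0%. The median ratio of the 37 was 1.30, and that of all genes tested 0.942. The cells without members came more from clusters 2 (32.4% against 11.9%) and 4 (31.7% against 4.56%) and less from clusters 1 (16.7% against 41.5%) and 5 (1.496% against 13.6%), and had a median of 2754 UMIs before thinning against 3406, and the part of these in the ratios was not tested.

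The genes called higher were mostly cytokines and secreted inflammatory proteins. Csf2, the growth factor GM-CSF, was at 54.8 against 6.46 CPM, 8.48-fold higher. Lcn2, an iron-trapping antibacterial protein, was at 499.0 against 69.3 CPM (7.21-fold), Tnf at 44.3 against 6.75 (6.56-fold), and Ccl20, a chemokine for Ccr6-bearing lymphocytes, at 34.1 against 9.10 (3.74-fold). Csf3, the neutrophil growth factor G-CSF, was 3.07-fold higher, Lif 2.71-fold, Il1a 2.48-fold, the adhesion molecule Icam1 2.35-fold and Il1rn, the interleukin-1 receptor antagonist, 2.14-fold. Of these 9, Lif and Il1rn were called within none of clusters 1 to 5. All 3 inducing cytokines that could be tested (Il1a, Il1rn and Tnf, with Il1rn an antagonist placed in that list) were among them.

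Over all cells the genes of NF-kB itself were not called. None of its 5 subunits was (ratios from 0.984 for Nfkb1 to 1.35 for Relb), and none of 6 inhibitors and feedback genes, of which Nfkbia, the inhibitor IkB-alpha, came nearest at 1202 against 686.0 CPM (1.75-fold). Within clusters Nfkbia was called higher in cluster 1 (2.25-fold, 2.002 to 2.524) and in cluster 5 (2.26-fold, 1.597 to 3.317). None of 5 regulators of mRNA decay was called, with Zfp36 at 0.918. RNA levels of these genes do not measure the activity of the proteins. The 2 genes called lower were Cxcl12, a chemokine of stromal cells, at 8.22 against 58.1 CPM, and Ccl7, a monocyte chemokine, at 131.0 against 379.4 CPM.

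Ccl7 went the other way within clusters. It was at 1167 CPM in cluster 4, which held 31.7% of the cells without members, and at 18.97 to 102.9 CPM in the other 7. Within cluster 1 it was at 85.1 CPM in cells with 5 or more member UMIs and 12.3 CPM in cells with none (6.93-fold higher, interval 3.33 to 17.4), and within cluster 2 it was 7.61-fold higher (3.24 to 21.8). In cluster 4 it was 1.29-fold higher and not called. Its relative Ccl2, also a monocyte chemokine, was 1.38-fold higher and not called over all cells. Within cluster 1 Ccl2 was at 702.1 against 15.8 CPM, the latter from 9 UMIs, a ratio of 44.5 (23.4 to 97.4).

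Within clusters 1 to 5 the related genes called higher numbered 9, 9, 8, 5 and 3, against 0.852%, 0.902%, 0.625%, 1.18% and 0.416% of all genes. Cluster 5 had only 34 cells without a member. Ccl2 was called in clusters 1, 2 (7.14-fold), 3 (16.9-fold) and 5, where the cells without members held 1 UMI, and Csf2 in clusters 1 to 4. Csf1, the growth factor of macrophages, was called in clusters 1 (2.64-fold) and 2 (2.19-fold), Cxcl10, an interferon-induced chemokine, in 2 (5.95-fold) and 3 (4.16-fold), and Ptgs2, the inducible cyclooxygenase, in 2 (2.95-fold) and 3 (3.01-fold). Saa3 was called in cluster 4 (23 UMIs against 1) and Cxcl16 in cluster 5 (291 UMIs against 1). Lcn2 was called in clusters 3 and 4 and not in 1, 2 and 5, where it was 1.77-fold, 1.85-fold and 1.97-fold higher. Ackr3 was the only related gene called lower in any of these 5 clusters, in cluster 2, at 15.3 against 40.7 CPM. Of all genes, 1.03%, 0.706%, 0.658%, 0.349% and 1.28% were called lower in them.

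In cluster 1, Ccl2 went with the members in steps. It was at 15.8 CPM (7.22 to 29.97) in the 380 cells without a member UMI, at 114.2 CPM with 1 to 4, at 350.0 CPM with 5 to 9, at 609.7 CPM with 10 to 19 and at 1532 CPM (1450 to 1616) in the 575 cells with 20 or more. No neighbouring intervals overlapped. Nfkbia, over the same classes, was at 550.9, 675.8, 976.7, 1312 and 1624 CPM, a much smaller range. In cluster 3 Ccl2 went from 20.9 CPM to 735.4 CPM, and in cluster 2 from 45.2 to 545.5 CPM, where the last class held 88 cells and overlapped the class before it.

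**Figure D5:**
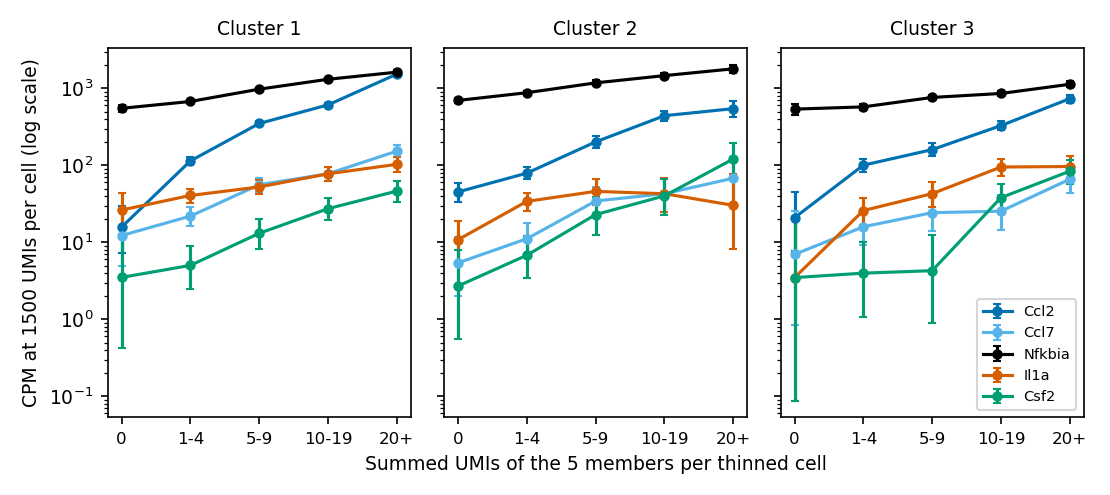
CPM at 1500 UMIs per cell on a log axis (y) of 5 related genes (colours) by summed member UMIs per cell (x) in clusters 1, 2 and 3, with 95% Poisson intervals. In cluster 1 Ccl2 goes from 15.8 to 1532 CPM while Nfkbia goes from 550.9 to 1624 CPM.

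The genes most like each member over cells were named by Spearman correlation among genes with a thinned mean of 0.1 or more, over 13281 cells of 1 culture. For all 5 members the closest gene was another member. Cxcl5 came first for Ppbp, Cxcl1 and Cxcl3. Ppbp came first for Cxcl5, and Cxcl1 for Cxcl2. Outside the family, Nfkbia (0.240), Ccl2 (0.208), Ch25h (0.165), Lcn2 (0.154) and Tnfaip2 (0.146) came closest to Cxcl1. The same 5 genes came closest to Cxcl2, at 0.119 to 0.151. Cxcl3 had Slpi (0.169), which encodes a secreted protease inhibitor, Ch25h, Ly6d, Nfkbia and Lcn2.

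Cxcl5 and Ppbp had another list. Wfdc2 (0.258), Ly6a (0.252), Lcn2 (0.248), Anxa1 (0.239) and Akr1b3 (0.232) came closest to Cxcl5, and Ly6a (0.346), Anxa1 (0.340), Rps2 (0.327), Wfdc2 (0.325) and S100a6 (0.320) to Ppbp. Cxcl1 ranked only 34 for Ppbp (0.175). For the summed members the highest were Wfdc2 (0.343), Anxa1 (0.342), Ly6a (0.337), Akr1b3 (0.308), S100a6, Rps2, Rps4x, Cldn4, Ifitm3 and Ch25h (0.225). The lowest were Sparc (-0.295), Fn1 (-0.275), Fstl1 (-0.269), Vim (-0.261) and Thbs1 (-0.259), which encode matrix, cytoskeletal and secreted stromal proteins.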

How the data were processed

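PC cells were profiled in 1 matrix of raw UMI counts per gene and cell barcode, as the authors deposited it, with CellRanger 8.0.1 named in the matrix header. The submitters' processing notes name mm10, Cell Ranger and Scanpy 1.8.2 without giving their roles. No normalization had been done. Besides mouse genes, 2 added sequences, GFP and Scar, were counted. Barcodes needed 500 genes, 1000 UMIs and a mitochondrial share of 20% or less, which left 14925 of 18116. Of these, Scrublet called 1 as a doublet, too few for a working call, so doublets were not removed. The number of columns of other samples was 0.

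CPM came from counts summed over cells, with exact 95% Poisson intervals, and shares have exact (Clopper-Pearson) binomial intervals. Cells were thinned without replacement to 1500 UMIs. Leiden clustering (scanpy 1.11.5, igraph 0.11.9) used 2000 variable genes without the members and related genes, 30 components, 15 neighbours and resolution 0.6. For a gene at 0 to 2 UMIs the ratio used 3 UMIs. A cluster is named only in words for its markers, from lists scored at 1.5-fold over other cells. Summed over kept cells, the lists held 2912 CPM (basal), 1028 (simple epithelial), 360.2 (differentiated squamous), 1569 (mesenchymal), 672.6 (cycling), 564.7 (interferon-responding), 8.80 (immune), 3.76 (neutrophil), 17.2 (platelet) and 10.1 (endothelial).

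The genes named are the members, the 5 genes most correlated with each, the 10 most and 5 least correlated with their sum, and every related gene called. Other related genes, the neighbours in the gene cluster and the steps of Ccl2 and Nfkbia were described after their values were seen. The members and lists were chosen with earlier results of these data known. Gene positions came from GENCODE M21 and promoters from RefSeq (GRCm38.p6). A 10-letter NF-kB form within the shared promoter run had been searched before the run was derived. Of the related genes, Il36a and Il36g were matched by older symbols. Alternatives changed the filters, thinning, clustering, split and measure of likeness. Leaving out cluster 6 and working within clusters were added after seeing the data. The spread, thinning, correlation and calling steps were checked on simulated counts.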

Additional observations from a re-analysis of the deposited data

Results flagged for a closer look

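A UMI of the added sequence GFP was found in 99.99% of kept cells and a UMI of the added sequence Scar in 99.95%. Both were singled out because they lie outside the mouse genes and were far above the 0.0201% that a count of 0 would allow. Over thinned cells their Spearman correlation with the summed members was -0.0449 for GFP and -0.0283 for Scar.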

How the results depend on the processing

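There was 1 culture and 1 matrix, so nothing below measures the spread between cultures, and depth limits Cxcl2 most, with 548 thinned cells that held a UMI. No paired analysis was possible because there is 1 sample and no test. Of the values followed over these alternatives, levels, shares, highest-to-lowest cluster ratios and counts of genes have no direction that could change. The pair ratios over all cells stayed above 1 (lowest 1.078, Cxcl1 and Ppbp). The variance-to-mean ratios did too (lowest 2.435, Cxcl3). Single related genes were not among the values followed, and Ccl7, called lower over all cells, was called higher within clusters 1, 2 and 3. The summed level was 6244 CPM with at least 1000 genes and 2000 UMIs, 5878 with at most 10% mitochondrial UMIs, 5612 with no filter, 5884 without the 10% of cells with the highest Scrublet score, 6000 with GFP and Scar left out of the total and 5932 without cluster 6. The share of cells with a member was 75.08% thinned to 1000 UMIs, 87.67% thinned to 2000, 84.48% with the stricter minimum and 81.99% without the highest Scrublet scores. The variance-to-mean ratio of the sum (15.74) was 10.65 thinned to 1000 UMIs, 20.83 thinned to 2000, 15.78 with another seed, 15.81 with the stricter minimum, 15.99 with at most 10% mitochondrial UMIs, 16.67 without the highest Scrublet scores, 15.83 without cluster 6 and 55.37 without thinning. The median pair ratio (1.444) was 1.578, 1.347 and 1.455 for the thinning to 1000, to 2000 and with another seed, 1.414 with the stricter minimum, 1.47 without the highest Scrublet scores and 1.46 without cluster 6. The ratio of the highest to the lowest cluster for the sum (8.59) was 8.987 at resolution 0.4, 10.28 at resolution 1.0, 8.719 with the members kept among the variable genes, 9.369 with the stricter minimum and 11.54 without the highest Scrublet scores. For Ppbp alone it reached 24.35, where the lowest cluster came mostly from cluster 6. For the sum, the lowest cluster came mostly from cluster 6, not cluster 4, at resolutions 0.4 and 1.0 and with the members kept. At resolution 0.4 the highest Cxcl1 level was in another cluster of 210 cells, mostly from cluster 9, at 909.6 CPM. The number of related genes called higher (9) was 8 with a split at 3 UMIs, 9 without cluster 6, 5 within cluster 4 and 3 within cluster 5. The cause of these changes was not tested. Of the 10 genes most like the summed members, 8 remained with Pearson correlation.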
